A study of Mus musculus with 2 samples.

Results

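The 46 genes described here encode the extracellular matrix of the uterine stroma: fibrillar, fibril-associated, microfibrillar and basement membrane collagens, laminins, elastic fibre proteins, proteoglycans, matrix glycoproteins, and the enzymes and inhibitors that cross-link, cut or protect them. They are 46 of 21627 protein-coding genes on the chromosomes with loops, and were listed by function, with earlier results of these data known; the rule itself uses no measured value. A loop was counted for a gene when either end of the gene, as RefSeq places it on GRCm38 (mm10), lay inside a loop anchor or within 5 kb of it. By this rule 42 of the 46 genes had a loop in at least 1 library, 91.3% against 55.7% of all protein-coding genes. The other 4, Col15a1, Col18a1, Loxl2 and Timp2, had none in either library by this rule. With any base of the gene inside an anchor counted, Col15a1 had 4 loops in each library and Timp2 had 1 in each. Col18a1 then had 5 in diestrus and 4 in estrus, and Loxl2 still had none.

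Hi-C, which counts how often pairs of genomic sites touch, was run on whole uteri of untreated, intact, outbred CD-1 mice aged 2 months, in 1 library from diestrus and 1 from estrus. The sources do not say if 1 animal or a pool gave each library. With 1 library per stage no difference has a replicate check and no test was made. Intervals of contacts and strength cover counting error only, and those of shares take loops as independent of each other. Whole uterus holds stroma, muscle, epithelium, vessels and immune cells in proportions that change through the cycle, so a change in cell composition and a change within a cell type cannot be told apart, and loops hold no expression with which to check the tissue.

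The stromal matrix of the uterus is laid down by fibroblasts and smooth muscle cells and is remodelled in each estrous cycle, when estrogen and progesterone alternate, and again in pregnancy. Collagens I, III and V copolymerise into the fibrils that bear tension, collagens XII and XIV coat those fibrils, collagen VI links them to cells, and collagen IV and laminins form basement membranes. A chromatin loop is a pair of distant sites that touch more often than their surroundings. Many such loops are held by CTCF and cohesin, and others join promoters to enhancers.

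The deposited lists held 26240 loops in diestrus and 24131 in estrus, with a median of 125 contacts per loop in both. Each loop joins 2 anchors of 10 kb. Its strength is given here as the contacts observed over those expected from the ring of pixels around it, called the donut by the loop caller, so a strength of 3 means 3 times as many contacts as the surroundings. Summed over the matrix genes there were 150 loops in diestrus and 133 in estrus, which are 146 and 128 distinct loops because some loops touch more than 1 of the genes. The ratio of estrus to diestrus was 0.887, against 0.954 over all protein-coding genes. Matrix genes with a loop averaged 3.57 loops in diestrus and 3.17 in estrus, against 2.15 and 2.05 for all genes with a loop.

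Contacts at the loops that both libraries shared were fewer in estrus for most of these genes. Mutually nearest loops of the 2 lists formed 113 pairs at the matrix genes. The estrus library had fewer contacts at 90 of them, 79.6% (95% Clopper-Pearson interval 71 to 86.6), against 59.3% of all 19399 shared pairs. The median log2 ratio of contacts, estrus over diestrus and not corrected for depth, was -0.23 at the matrix genes and -0.06 over all pairs. Summed contacts at these pairs were 30197 in diestrus and 25664 in estrus, a ratio of 0.85, where all shared pairs together gave 0.957.

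The same was seen in the local surroundings of the loops. The donut-expected number of contacts was lower in estrus at 100 of the 113 pairs, 88.5% against 70.1% of all pairs, with a median log2 ratio of -0.19 against -0.08. The expected contacts summed per gene were lower in 36 of the 41 genes with a shared pair, 87.8% against 69.2% of all such genes. Likewise 35 of the 41 matrix genes with a shared pair had fewer summed contacts in estrus, 85.4% against 58.3% of all genes with a shared pair. The 6 exceptions were Bgn, Col14a1, Lamc1, Lox, Nid1 and Vcan. The pairs are not independent of each other, although the interval of the share above takes them so. Several leave 1 anchor, and Col3a1 and Col5a2, Col6a1 and Col6a2, and Dcn and Lum lie in shared neighbourhoods. Col4a1 and Col4a2 have the same pairs, and each counts among the 41 genes.

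Short loops stood furthest from the rest of the genome in this respect. Among pairs up to 100 kb long, 26 of 28 at the matrix genes had fewer contacts in estrus, 92.9% against 48.7% of all pairs of that length. From 110 to 300 kb the count was 33 of 41, 80.5% against 61%, and over 300 kb it was 31 of 44, 70.5% against 63%. Among 82 other matrix and matrix receptor genes, the share over all lengths lay between the 2, at 77 of 111 pairs, 69.4%. This measure was chosen after the data had been seen, and the part that depth, cell composition or the neighbourhoods of these genes had in it was not tested.

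**Figure D1:**
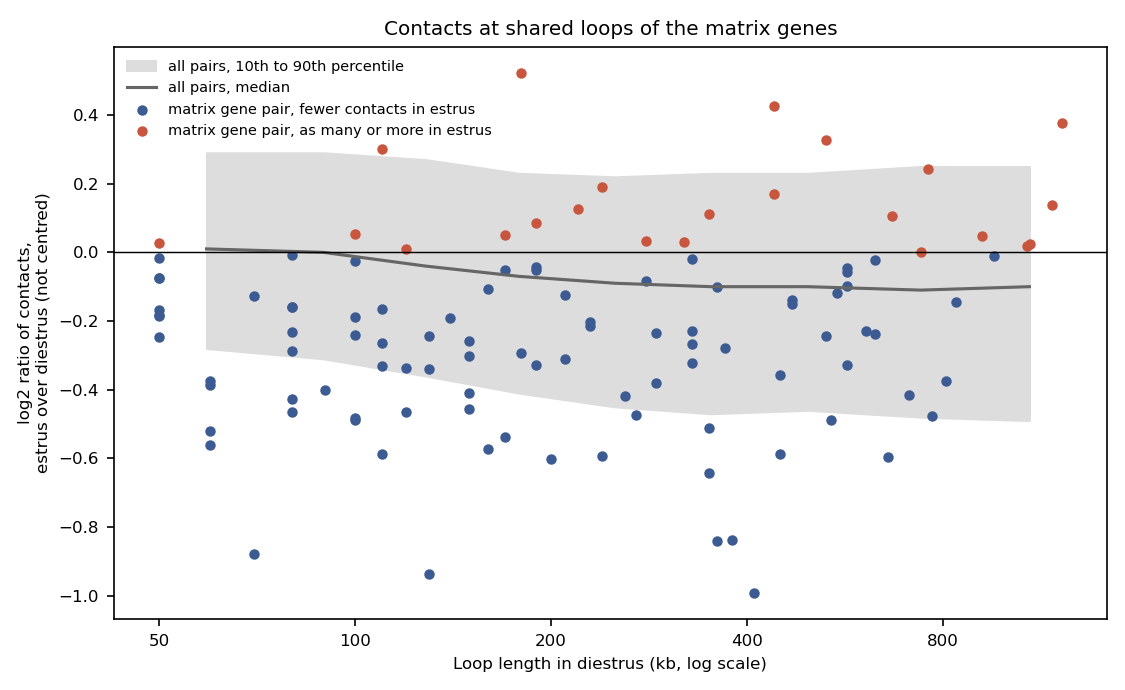
Each point is 1 of the 113 shared loop pairs of the matrix genes, placed by its length in diestrus (kb, log scale) and the log2 ratio of its contacts, estrus over diestrus, without centring; the grey line and band are the median and the 10th to 90th percentile of all 19399 pairs by length class. The 90 blue points lie below 0, and the short pairs up to 100 kb lie almost all below the line for all pairs.

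Set against that lower background, loop strength itself differed little between the stages. The log2 ratio of strength, centred on the median of all pairs, had a median of -0.05 and an SD of 0.22 across the 113 pairs, against 0.00 and 0.26 over all pairs, with 67 below 0 and 46 above. The counting interval of the ratio lay below 0 at 10 pairs, 8.85% against 6.98% of all pairs, and above 0 at 7, 6.19% against 6.36%. A difference past 1.5-fold was found at 2 pairs in favour of diestrus, where 1.56% of all pairs passed, and at 1 in favour of estrus, where 1.64% passed. The first 2 are loops of Col3a1 and the third is a loop of Mmp2, described with their genes.

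**Figure D2:**
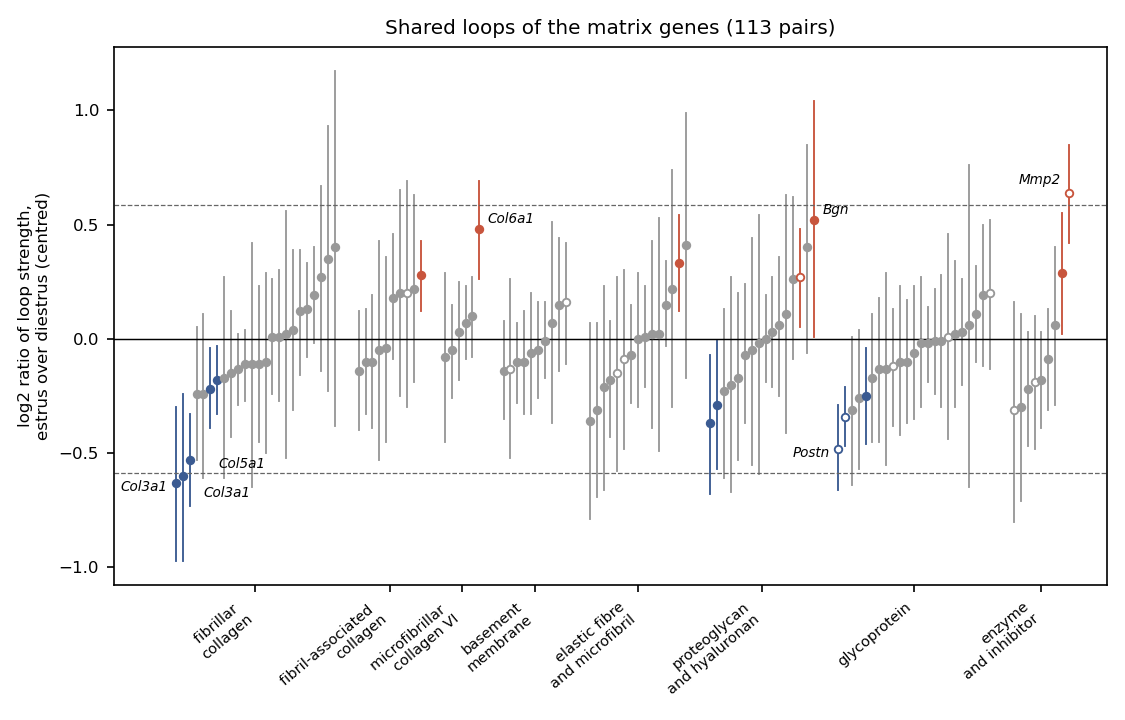
The 113 shared loop pairs of the matrix genes by role group, each with the log2 ratio of strength, estrus over diestrus, centred on all pairs, and its 95% counting interval. Blue and red mark intervals wholly below or above 0, open points mark pairs whose anchors are offset by 1 or 2 bins between the libraries, and dashed lines stand at 1.5-fold; most points lie within 0.4 of 0, and the points past a dashed line belong to Col3a1 and Mmp2.

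More of the genes had extra loops in diestrus than in estrus. Of the 42 genes with a loop, 19 had a larger number in diestrus, 10 had a larger number in estrus and 13 the same number, where 31.5%, 25.6% and 42.9% of all genes with a loop fell in these classes. The diestrus list is the longer one, and with it shortened to its strongest loops, as many as in estrus, the counts were 14, 13 and 15. The shares of all genes were not computed with the shortened list. A difference of 2 or more loops was seen toward diestrus in 6 genes, 14.3% against 7.12% of all genes with a loop: Col3a1, Fn1, Vcan, Ltbp1, Ltbp2 and Lamc1. It was seen toward estrus in 1, Eln, or 2.38% against 4.29%. Genes with many loops differ by 2 more easily. Of the 26 matrix genes with at least 3 loops in a library, 23.1% had at least 2 more in diestrus and 3.85% in estrus, against 14.5% and 8.4% of all such genes. Of the 11 with at least 5 loops, 45.5% had at least 2 more in diestrus against 23.9% of all such genes. Of the 6 with at least 8 loops, 33.3% had at least 2 more in diestrus, below the 42.2% of all such genes, and none had so in estrus, against 13.2%.

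**Figure D3:**
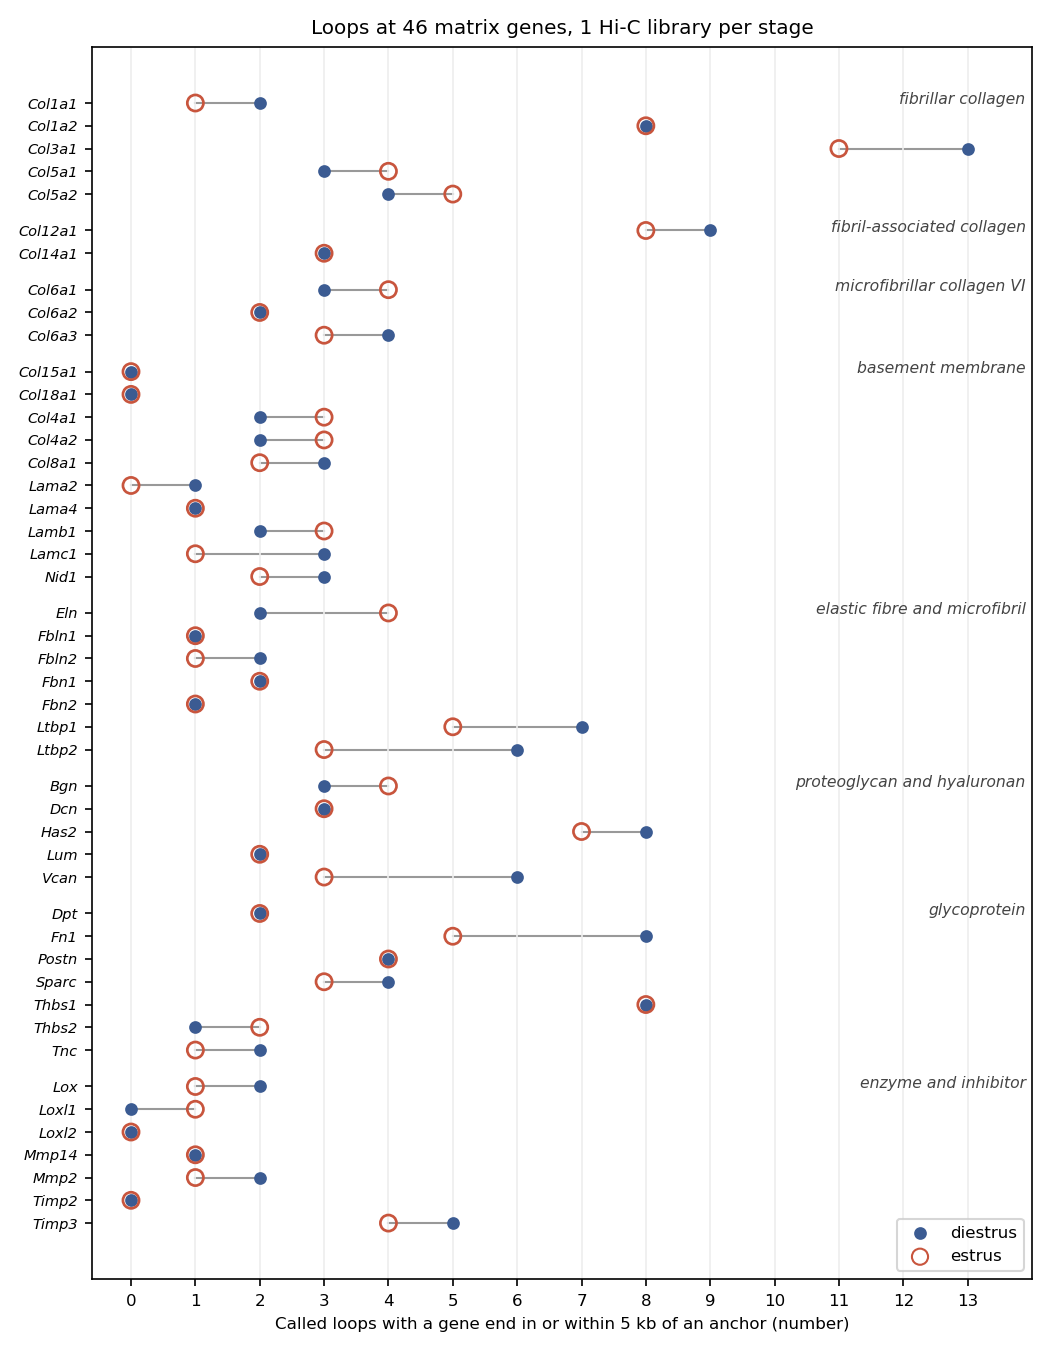
Number of called loops at each of the 46 matrix genes in the diestrus library (filled) and the estrus library (open), by role group. Col3a1 has the most, 13 and 11, and the longest horizontal lines are those of Fn1, Vcan and Ltbp2, each with 3 fewer loops in estrus.

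The loops of matrix genes were found again in the other library about as often as other loops. Of the 146 distinct diestrus loops, 111 had a counterpart in estrus, 76% (68.3 to 82.7) against 74.4% of all loops and 78% at protein-coding genes. Of the 128 estrus loops 110 had one in diestrus, 85.9% (78.7 to 91.4) against 80.8% and 82.1%. Counted per gene, 35 loops in diestrus and 19 in estrus had no counterpart. These were weak, with a median strength of 2.51 and 2.23, where the shared loops had 3.17 and 3.26. Over all loops the medians were 2.56 and 2.57 for those in a single library, and 3.68 and 3.74 for shared ones. A loop missing from a list means that it did not pass the caller there, and its contacts in that library are not known from these files.

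The fibrillar collagens carried 30 loops in diestrus and 29 in estrus, over 5 genes. Col3a1 encodes the collagen III chain of extensible tissues, and lies on chromosome 1 at 45311538 to 45349706, plus strand. It had 13 diestrus and 11 estrus loops, and only 18 protein-coding genes, itself included, had as many over both libraries. The anchor chr1:45310001-45320000 over its start held 10 of them in each stage, 7 of which ran upstream in estrus and 8 in diestrus. The sequence of the 250 bases before the RefSeq start site, inside that anchor, is shown because more loops meet here than at any other of these genes. Capitals mark a TATAAA motif that begins 117 bases before the start.
Col3a1 promoter, chr1:45311288-45311537, plus strand: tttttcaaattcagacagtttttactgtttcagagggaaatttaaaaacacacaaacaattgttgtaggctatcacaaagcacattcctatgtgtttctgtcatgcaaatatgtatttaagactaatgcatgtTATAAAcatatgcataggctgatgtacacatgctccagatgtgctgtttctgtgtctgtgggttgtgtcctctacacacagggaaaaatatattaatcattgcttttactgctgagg

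Upstream, the Col3a1 promoter met the gene-poor interval toward Gulp1, which encodes an adaptor for the engulfment of dying cells. The strongest of these loops spanned 570 kb to an anchor within Gulp1, with 381 contacts in diestrus and 356 in estrus and a strength of 7.34 and 8.48. Loops of 760 kb, to an end of Gulp1 (49 and 58 contacts), and of 1090 kb, toward Mettl21e (60 and 61), were present in both. These long loops did not differ beyond their counting intervals, with log2 ratios of strength of 0.19 (-0.02 to 0.40), 0.35 (-0.23 to 0.93) and 0.02 (-0.52 to 0.56).

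The shorter upstream loops of Col3a1 had fewer contacts in estrus. At 290 kb there were 292 contacts in diestrus and 248 in estrus, at 200 kb 246 and 162, and at 130 kb 220 (192 to 251) and 115 (94.9 to 138). Strength at 130 kb was 3.37 in diestrus and 2.19 in estrus, a log2 ratio of -0.63 (-0.97 to -0.30). The 3 far anchors hold no protein-coding gene.

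Downstream, Col3a1 shared its far anchors with Col5a2, which encodes a collagen V chain that nucleates fibrils and lies next to it at 45374331 to 45503282. Anchors beginning at 45620001, 45670001 and 45760001, none of them over a protein-coding gene, were met, in at least 1 library, from the start of Col3a1, from its 3′ end and from the far end of Col5a2. From the start of Col3a1 the loop to the last of them had 257 contacts in diestrus and 171 in estrus, with strengths of 6.08 and 6.2. From its 3′ end the loop to the same anchor had 193 (167 to 222) and 97 (78.7 to 118), with strengths of 5.62 and 3.74 and a log2 ratio of -0.60 (-0.97 to -0.24). From Col5a2 it had 163 and 122, with strengths of 3.85 and 4.

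The difference in loop number at Col3a1 came from the 3′ end. That anchor, chr1:45350001-45360000, lies within 5 kb of the gene end without covering it, and had 3 diestrus loops and 1 estrus loop. The 2 that were called in diestrus alone ran 270 and 320 kb to the first 2 of these far anchors, with 113 and 136 contacts and strengths of 2.68 and 3.28. Conversely, a 310 kb loop from the start of Col3a1 to the first was called in estrus alone, with 85 contacts and a strength of 2.5. Counting only gene ends that lie inside an anchor, Col3a1 had 10 loops in each stage. With the highest of the caller's 4 expected numbers in place of the donut, both Col3a1 differences in strength were below 1.5-fold, at -0.41 for the 130 kb loop and -0.45 for the 410 kb loop. With the bottom-left expectation they were larger than with the donut, at -0.71 and -0.74.

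**Figure D4:**
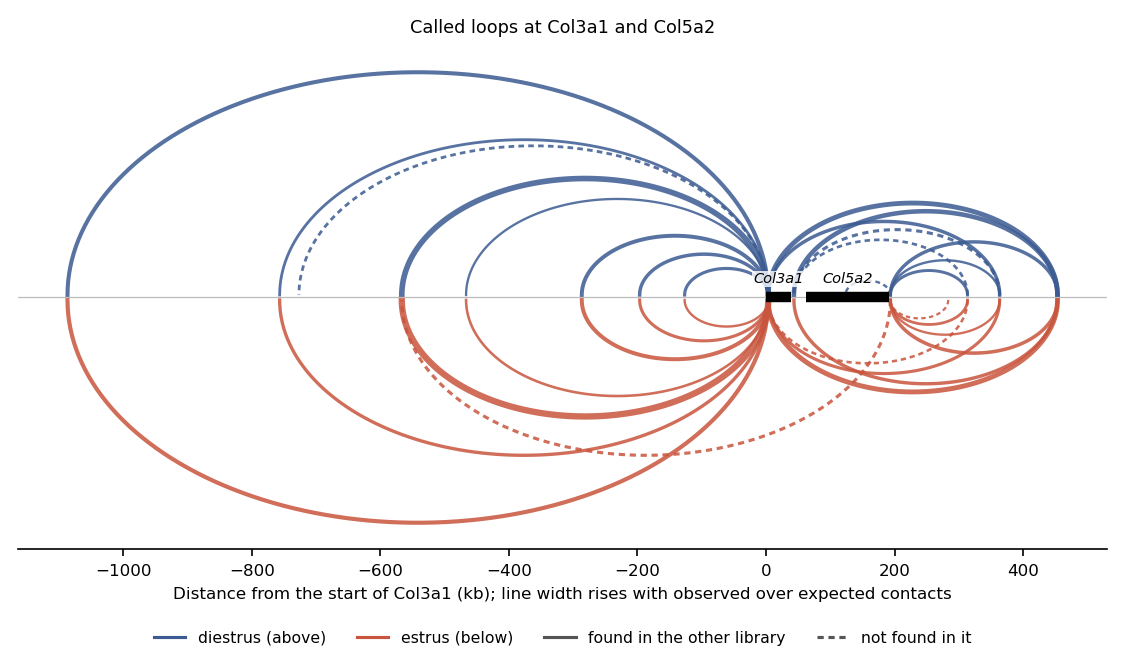
Called loops at Col3a1 and Col5a2 as arcs, diestrus above and estrus below the line, by distance from the start of Col3a1 (kb); lines thicken with strength and dashed arcs had no counterpart in the other library. A fan of loops leaves the start of Col3a1 upstream in both stages, and the right-hand anchors collect loops from both genes.

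Col5a2 had 4 diestrus and 5 estrus loops, of which 3 were shared. In diestrus alone a 70 kb loop ran into its own gene body, with 203 contacts and a strength of 2.18. In estrus alone it reached 760 kb across Col3a1 to the same Gulp1 anchor that Col3a1 meets, with 50 contacts and a strength of 3.33, and an anchor 90 kb away, with 139 contacts and a strength of 1.9. The median log2 ratio of the donut-expected contacts was -0.45 over the 3 shared pairs of Col5a2 and -0.35 over the 10 of Col3a1, all 13 below 0.

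Col1a2, which encodes the second chain of collagen I, had 8 loops in each stage, 7 of them shared. From the start of the gene, on chromosome 6 at 4505618, a loop of 90 kb had 840 contacts in diestrus and 636 in estrus. From its 3′ end a loop of 130 kb reached the same far anchor, which holds no protein-coding gene, with 608 and 480. Strengths were 5.94 and 5.3 for the first, and 7.29 and 6.33 for the second, with log2 ratios of -0.18 (-0.33 to -0.03) and -0.22 (-0.39 to -0.04). The 250 bases before the start are shown for comparison with Col3a1, because these genes encode partner fibrils and both promoters sit in a loop anchor. Capitals mark a CCAAT motif that begins 109 bases before the start; 62% of the bases are G or C, against 35.2% in Col3a1.
Col1a2 promoter, chr6:4505368-4505617, plus strand: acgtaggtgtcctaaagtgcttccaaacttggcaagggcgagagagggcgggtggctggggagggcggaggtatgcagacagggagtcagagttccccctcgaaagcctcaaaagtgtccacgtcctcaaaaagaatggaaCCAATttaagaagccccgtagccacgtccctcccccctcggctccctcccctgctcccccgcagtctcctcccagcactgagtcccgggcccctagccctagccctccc

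Most other loops of Col1a2 left its 3′ end, in both directions. To the right, loops of 570 and 840 kb reached Ppp1r9a, a regulator of protein phosphatase, with 226 contacts in diestrus and 217 in estrus, and Asb4, an ankyrin repeat gene, with 158 and 143. To the left, loops of 630 and 920 kb had 66 and 56 contacts, and 30 and 31. A 540 kb loop to Gng11 and Gngt1, which encode G protein gamma subunits, was called in diestrus alone with 51 contacts, and a 1030 kb loop to an anchor within Vps50 in estrus alone with 25.

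Col1a1, which encodes the more abundant chain of collagen I, had far fewer loops than its partner. Its lower end met an anchor 60 kb away in both stages, with 804 contacts in diestrus and 615 in estrus and strengths of 4.44 and 4.16. A 200 kb loop with 72 contacts was called in diestrus alone. Col5a1, the other collagen V chain measured, had 3 loops in diestrus and 4 in estrus. Its 70 kb loop had 587 contacts in diestrus and 319 in estrus, with strengths of 2.88 and 2.02 and a log2 ratio of -0.53 (-0.73 to -0.33), just inside 1.5-fold. Its 110 kb loop had 836 and 556 contacts at strengths of 6.99 and 6.44. Fewer contacts in estrus were thus listed at every shared loop of Col1a1 and Col5a1, while strength differed beyond counting error at only 1 of these 4 loops.

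The fibril-associated collagens had 12 and 11 loops. Col12a1, whose product coats collagen I fibrils, had 9 in diestrus and 8 in estrus, the second most of the 46 genes by the 5 kb rule. All 8 of the estrus loops had a diestrus counterpart, and 7 of them fanned to the left from the higher end of the gene across an interval without protein-coding genes toward Cd109. The strongest, of 960 kb, had 310 contacts in diestrus and 308 in estrus and strengths of 9.18 and 8.66. Another, of 110 kb, joined both ends of Col12a1 to each other in both stages, with 222 and 185 contacts. No log2 ratio of strength at Col12a1 left the range -0.14 to 0.20, and every interval covered 0. The loop in diestrus alone, of 860 kb, had 99 contacts and a strength of 2.69. These numbers rest on the 5 kb margin, and with gene ends only inside an anchor Col12a1 had 2 loops in each stage.

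Col14a1, whose product also decorates fibrils, held the strongest loop of the whole set. It ran 240 kb from the lower end of the gene past its other end, with 640 contacts in diestrus (591 to 692) and 731 in estrus (679 to 786). Strength was 12.2 and 14.9, a log2 ratio of 0.28 (0.12 to 0.43). Its 740 kb loop had 103 contacts in each stage. Col14a1 thus had more contacts in estrus at its main loop, against the direction of most of the genes.

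The 3 collagen VI genes had 9 loops in each stage. Col6a1 and Col6a2, neighbours on chromosome 10, were joined to each other by a loop of 100 kb between the anchors over their starts, with 808 contacts in diestrus and 576 in estrus. Strength was 5.52 and 5.86, a log2 ratio of 0.07 (-0.09 to 0.23), so that the fewer contacts went with a lower surrounding level (log2 ratio of expected contacts -0.57). The promoters at its ends are shown because this is 1 of only 2 loops that joined members of the set. Neither holds a TATAAA or CCAAT motif in these 250 bases.
Col6a1 promoter, chr10:76726045-76726294, minus strand: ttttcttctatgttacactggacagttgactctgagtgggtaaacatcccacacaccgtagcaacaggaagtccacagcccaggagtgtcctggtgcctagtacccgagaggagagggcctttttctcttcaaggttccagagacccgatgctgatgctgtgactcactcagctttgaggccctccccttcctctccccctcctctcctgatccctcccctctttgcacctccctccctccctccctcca
Col6a2 promoter, chr10:76623631-76623880, minus strand: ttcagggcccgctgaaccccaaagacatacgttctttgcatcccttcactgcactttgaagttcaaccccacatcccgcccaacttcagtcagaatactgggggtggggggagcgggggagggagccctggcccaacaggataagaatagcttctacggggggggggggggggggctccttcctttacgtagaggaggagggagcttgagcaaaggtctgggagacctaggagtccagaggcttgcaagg

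Col6a1 also reached 280 kb to an anchor at Ybey, an RNA-processing enzyme, and 2610028H24Rik. That loop had 349 contacts in diestrus and 357 in estrus, while the expected number was 35.9 and 26.1. Its strength was therefore 9.71 and 13.7, a log2 ratio of 0.48 (0.26 to 0.69). A 180 kb loop to Lss, a sterol synthesis enzyme, and Spatc1l was called in estrus alone with 196 contacts. Col6a3, the third chain, had 4 and 3 loops. Its main loop of 190 kb had 557 and 538 contacts at strengths of 5.3 and 5.73, and a loop of 110 kb to Mlph, Prlh and Rab17 was present in both, with 141 and 112 contacts.

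The basement membrane genes had 17 loops in diestrus and 15 in estrus over 8 genes, and the other 2 had none at a gene end. Col4a1 and Col4a2, which encode the main chains of collagen IV, start next to each other on opposite strands and share 1 anchor on chromosome 8. The same loops were therefore counted for both, of 60 kb with 653 contacts in diestrus and 455 in estrus, of 80 kb with 448 and 333, and of 50 kb in estrus alone with 320. Strengths at the shared ones were 2.92 and 2.75, and 2.49 and 2.43.

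Lamc1, which encodes the gamma 1 chain found in most laminins, had 3 diestrus and 1 estrus loops, all from its higher end. The loops called in diestrus alone had 293 and 79 contacts, at strengths of 2.28 and 1.84. The shared 50 kb loop had 202 contacts in diestrus and 206 in estrus, at strengths of 2.27 and 2.54. Of the other laminin genes, Lama4 had 1 loop in each stage (369 and 314 contacts), Lamb1 had 2 and 3, and Lama2 had 1 in diestrus alone, with 93 contacts. With any base of the gene counted, Lama4 had 6 in diestrus and 4 in estrus, Lamb1 had 3 and 3, and Lama2 had 12 and 9. Nid1, whose product bridges laminin and collagen IV, had 3 and 2 loops, and its 100 kb loop had 571 and 593 contacts at strengths of 6.28 and 6.32. Col8a1, of the short-chain collagen VIII, had 3 and 2.

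The elastic fibre and microfibril genes had 21 and 17 loops, and the genes that differed most lay in both directions. Ltbp1, which encodes a protein that tethers latent TGF-beta to microfibrils, had 7 loops in diestrus and 5 in estrus. All 5 of the estrus loops left the start of the gene and were shared. The strongest, of 190 kb to an anchor within Ttc27, had 365 contacts in diestrus and 387 in estrus, strengths of 4.78 and 6.08, and a log2 ratio of 0.33 (0.12 to 0.54). A 530 kb loop to Fam98a and Rasgrp3 had 47 and 59 contacts. In diestrus alone a 140 kb loop to Ttc27 had 203 contacts. The other extra loop, of 570 kb from the 3′ end, had 97 contacts, and its estrus counterpart with 94 contacts lay 1 bin away and so beyond 5 kb of the gene. Counting any base of the gene, Ltbp1 had 11 loops in each stage.

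Ltbp2, a relative with roles in microfibril assembly, had 6 loops in diestrus and 3 in estrus. Both ends of the gene met the same 2 anchors in diestrus. The nearer lies at Arel1 and Fcf1, with 68 contacts in diestrus and 66 in estrus from the 3′ end, and 141 and 101 from the start. The farther, within Ylpm1, had 116 and 78 contacts from the start, and 64 in diestrus alone from the 3′ end. Also in diestrus alone were a 90 kb loop between the ends of the gene, with 134 contacts and a strength of 3.17, and a 220 kb loop to Vrtn, with 51. The estrus counts were no higher than the diestrus counts at any shared loop of Ltbp2, and the ratios of strength, -0.31 (-0.69 to 0.07), -0.36 (-0.79 to 0.07) and 0.02 (-0.49 to 0.53), all had intervals that covered 0.

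Eln, which encodes elastin, was the only one of the 46 genes with at least 2 more loops in estrus, with 2 in diestrus and 4 in estrus. The shared loops were nearly equal in strength, 5.99 and 6.05 for the 210 kb loop to Clip2, and 5.04 and 5.14 for the 150 kb loop to Tmem270. Their contacts were 205 and 188, and 423 and 308. The loops called in estrus alone were weaker. A 50 kb loop to Limk1, a kinase of actin dynamics, had 152 contacts and a strength of 2.18, and a 220 kb loop to an anchor near Cldn4 had 82 and 2.13. Eln had 2 and 4 loops in each of the 5 other ways of counting that could be run for it.

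The remaining elastic fibre genes had 1 or 2 loops in each library. Fbln2, a fibulin of vessel walls and basement membranes, met Hdac11, a histone deacetylase, through a 100 kb loop with 471 contacts in diestrus and 463 in estrus and strengths of 8.11 and 9.12. A 60 kb loop between the ends of Fbln2 was called in diestrus alone with 232 contacts. Fbn1, the main fibrillin, shared a 100 kb loop with 111 and 94 contacts, and had another in each stage alone, of 240 kb to Dut in diestrus with 87 and of 70 kb in estrus with 141. Fbln1 and Fbn2 each had 1 shared loop, with 376 and 372, and 136 and 98 contacts.

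Among the proteoglycan and hyaluronan genes, with 22 and 19 loops, Has2 had the most. It encodes the main hyaluronan synthase, and had 8 loops in diestrus and 7 in estrus from its higher end, 6 of them shared. Its strongest, of 160 kb, had 293 and 272 contacts and strengths of 6.09 and 6.29. Its 350 kb loop had 234 and 150, with strengths of 4.23 and 3.3 and a log2 ratio of -0.37 (-0.68 to -0.07). Both far anchors lie in an interval without protein-coding genes. A 540 kb loop toward Slc22a22 had 94 and 67 contacts. Loops of 460 and 190 kb were called in diestrus alone with 47 and 82 contacts, and a 50 kb loop in estrus alone with 323.

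Vcan, which encodes versican, a large hyaluronan-binding proteoglycan, had 6 loops in diestrus and 3 in estrus, all running one way to anchors 350 to 1220 kb away. The 2 longest left the 3′ end and were strong in both libraries. The 1180 kb loop had 170 and 187 contacts at strengths of 6.2 and 6.52, and the 1220 kb loop to Atp6ap1l had 121 and 157 at 4.93 and 5.98. The start of the gene had 4 diestrus loops and 1 estrus loop. The shared one, of 770 kb, had 149 and 107 contacts. The 3 called in diestrus alone had 181 contacts at 350 kb, where Tmem167 and the DNA repair gene Xrcc4 lie, 111 at 980 kb and 165 at 1090 kb, with strengths of 2.16 to 2.46. Versican thus kept its strongest loops in both libraries, and the 3 listed in diestrus alone were its weakest.

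Dcn and Lum encode decorin and lumican, small leucine-rich proteoglycans that set fibril spacing, and lie side by side on chromosome 10. A loop of 80 kb joined them in both libraries, with 251 contacts in diestrus and 182 in estrus. Strength was 2.26 and 1.87, a log2 ratio of -0.29 (-0.57 to -0.01). Each of the 2 genes had equal numbers of loops in both stages, 3 for Dcn and 2 for Lum. Bgn, for the related biglycan, had 3 and 4, all to the left of its 3′ end. Its 180 kb loop had 55 and 79 contacts, a log2 ratio of strength of 0.52 (0.01 to 1.04), and its 440 kb loop toward Pnma3 had 73 and 98, at 0.40 (-0.06 to 0.85). Biglycan thus had more contacts in estrus at both of these loops, as versican did at its longest loops, while at 50 kb, toward Haus7 and Trex2, it had 134 and 118.

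**Figure D5:**
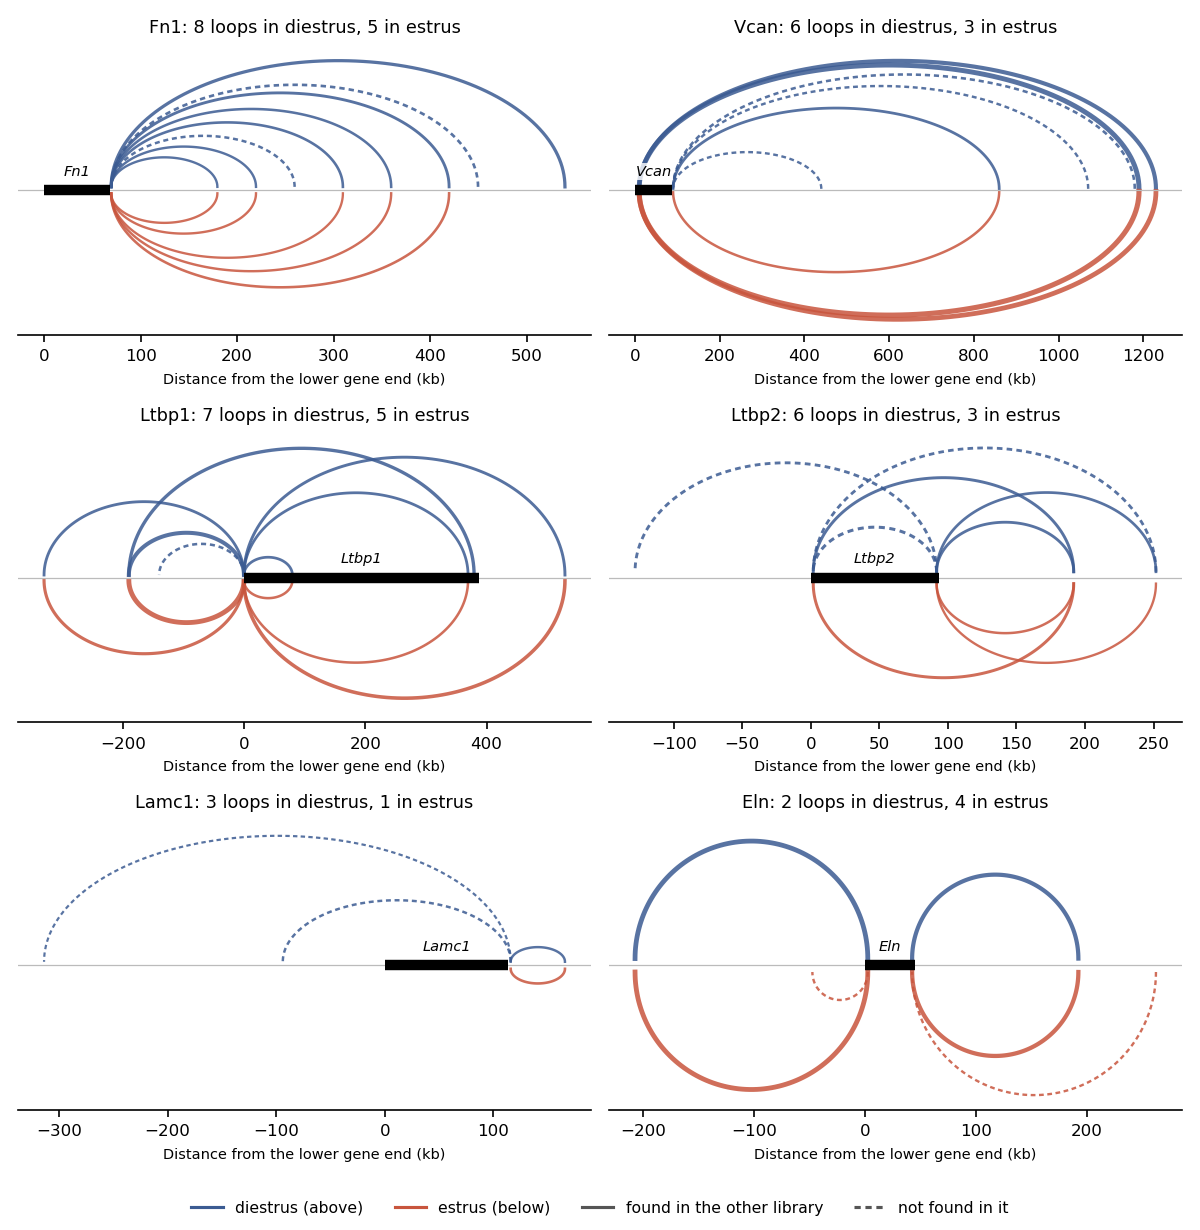
Called loops as arcs at the other 6 genes with a difference of at least 2 loops, diestrus above and estrus below, by distance from the lower gene end (kb); lines thicken with strength and dashed arcs had no counterpart. Only loops that meet the gene are drawn, so a solid diestrus arc of Fn1 and one of Ltbp1 have their estrus counterpart 1 or more bins off the gene; the dashed arcs are blue in 5 panels and red in that of Eln.

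The glycoprotein genes had 29 loops in diestrus and 25 in estrus. Fn1, which encodes fibronectin, had 8 and 5, all from its higher end into an interval of no protein-coding genes toward Mreg. The 5 shared at the gene, of 110, 150, 240, 290 and 350 kb, had 221 and 197, 234 and 176, 205 and 136, 194 and 149, and 218 and 153 contacts. Estrus was thus lower at each of the 5, although every interval of the strength ratio covered 0, with values from -0.31 to -0.02. Loops of 190 and 380 kb were called in diestrus alone, with 234 and 161 contacts at strengths of 2.35 and 2.63. The strongest diestrus loop, of 470 kb with 164 contacts at 3.51, had an estrus counterpart of 450 kb with 149 contacts at 4.06, whose anchor lay too far from the gene to be counted.

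Thbs1, which encodes thrombospondin 1, an activator of latent TGF-beta and inhibitor of vessel growth, had 8 loops in each stage, 7 of them shared. Of the shared loops, 6 ran left into an interval without protein-coding genes, and the strongest spanned 570 kb, with 687 contacts in diestrus and 547 in estrus at strengths of 8.98 and 8.94. The 330 kb loop had 319 and 315 contacts, and the 80 kb loop 389 and 387. Loops of 430 kb in diestrus and 480 kb in estrus were called in a single library, with 165 and 115 contacts. No interval of a strength ratio at Thbs1 left 0 out. Thbs2, for the related thrombospondin 2, had 1 and 2 loops, the shared one with 251 and 210 contacts.

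Sparc and Postn held strong loops whose strength was lower in estrus. Sparc encodes a collagen-binding protein of remodelling tissue, and its loop of 50 kb in diestrus and 60 kb in estrus, to the copper chaperone gene Atox1, had the most contacts of the whole set, 1010 and 888. Strength was 8.21 and 6.57, a log2 ratio of -0.34 (-0.47 to -0.21) between positions offset by 1 bin. Its 180 kb loop to Slc36a1, an amino acid transporter gene, had 425 and 347 contacts and a log2 ratio of -0.25 (-0.46 to -0.04) at the same position. Another, of 220 kb to Slc36a2, had 165 and 180. With gene ends only inside an anchor, Sparc had 1 loop in diestrus and 0 in estrus.

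Postn encodes periostin, a matrix protein of injured and remodelling stroma, and had 4 loops in each stage. Its strongest, of 320 kb in diestrus and 330 kb in estrus, had 476 and 486 contacts. The expected number was 39.3 and 55.1, so strength was 12.1 and 8.81 and the log2 ratio -0.48 (-0.66 to -0.29). It passed 1.5-fold toward diestrus with the bottom-left expectation, at -0.72, and with the highest of the 4, at -0.59. The far anchor lay 1 bin farther in estrus, where it came within 5 kb of an end of Supt20, so the 2 values belong to different pixels. The other shared loops of Postn, of 170 and 230 kb, had 167 and 161, and 173 and 149 contacts. At these identical positions the log2 ratios of strength were 0.02 (-0.30 to 0.34) and -0.10 (-0.42 to 0.23). Dpt, for dermatopontin, had 2 shared loops, with 341 and 299, and 41 and 32 contacts. Tnc, for tenascin C, had 2 weak loops in diestrus alone from its start, with 97 and 79 contacts, and in estrus a 540 kb loop from its 3′ end with 81 contacts and a strength of 5.59, whose diestrus counterpart with 88 contacts lay off the gene.

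The enzymes and inhibitors had the fewest loops per gene, 10 in diestrus and 8 in estrus over the 5 of 7 genes with a loop. Timp3, an inhibitor of matrix metalloproteinases that is bound to the matrix and lies within the gene Syn3, had 5 and 4. Its loops of 230 and 150 kb had 366 and 318, and 434 and 352 contacts, at strengths of 7.16 and 6.79, and 6.42 and 5.73. Its 110 kb loop had more contacts in estrus, 216 and 266, a log2 ratio of strength of 0.29 (0.02 to 0.55). The fifth, in diestrus alone, ran 100 kb from the 3′ end with 160 contacts. With gene ends only inside an anchor, Timp3 had 1 loop in each stage.

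Mmp2, which encodes gelatinase A, had by this rule 2 diestrus loops and 1 estrus loop. Its 170 kb loop to Slc6a2, the noradrenaline transporter gene, had 361 contacts in diestrus, and the counterpart in estrus, 180 kb long and 1 bin away from the gene, had 374. The expected numbers were 54.8 and 36.1, giving strengths of 6.59 and 10.4 and a log2 ratio of 0.64 (0.42 to 0.85). The 2 values belong to different pixels, and no pair at an identical position passed 1.5-fold toward estrus. Its 50 kb loop had 294 and 248 contacts. Mmp14, which encodes a membrane-bound activator of Mmp2, had 1 loop of 380 kb, with 143 and 80 contacts and a log2 ratio of -0.30 (-0.71 to 0.11). Lox, for the lysyl oxidase that cross-links collagen and elastin, shared a 120 kb loop with 143 and 144 contacts, and Loxl1 had 1 loop of 60 kb to Pml in estrus with 190, whose diestrus counterpart with 200 lay off the gene.

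Matrix genes met few other genes through their loops. Another protein-coding gene end lay at the far anchor of 36 loops in diestrus, 24% against 49.1% over all protein-coding genes, and of 27 in estrus, 20.3% against 49.2%. No protein-coding gene lay over or near the far anchor at 81 of 150 and 72 of 133 loops, a count that was not made for all genes. Of 52 pairs of a gene and a partner, 29 were seen in both libraries, at 16 of the genes. The share of such pairs seen in both over all genes was not computed. The pairs Col6a1 with Col6a2 and Dcn with Lum were the only ones between members.

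The promoters of 29 of the 46 genes were in the RefSeq table of GRCm38.p6, 300 bases each, from 250 before to 50 after the start site, and were searched on both strands. The CTCF core (CCA, AG and GGC, each 2 bases after the one before) was in 1, that of Fbln2, or 3.45% against 2.82% of all genes with a promoter in the table. The estrogen response element (GGTCA and TGACC, 3 bases apart) and the progesterone response element (GNACA and TGTNC, 3 bases apart) were in none, where 0.074% and 0.537% of all held them. TATAAA was in 5, 17.2% against 15.7%, and CCAAT in 12, 41.4% against 41.1%. The shares of the CTCF core, TATAAA and CCAAT lie close to those of all promoters, but 29 genes give wide intervals. These ran from 0.0873% to 17.8%, 5.85% to 35.8% and 23.5% to 61.1%. Both response elements are so rare over all genes that finding none in 29 was likely in any case, and no comparison follows. A match or its absence in this window says nothing of binding.

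The other genes of matrix and adhesion gave counts of the same kind. Of the 82 other matrix and receptor genes, 58 had a loop, 70.7% against 55.7% of all protein-coding genes. Their loops numbered 146 in diestrus and 133 in estrus. Diestrus had the larger number by 2 or more at 7 of the 58 genes, where 7.12% of all genes with a loop showed this. Estrus had the larger number by 2 or more at 2 of the 58, where 4.29% of all genes with a loop showed this. Adamts1 and Adamts9, proteases that cut versican, each had 9 and 7, and Sdc4, a syndecan, had 4 and 2. Mmp9, for gelatinase B, and Itgav, an integrin subunit gene, each had 2 and 4, and Matn2, for a matrilin, had 3 and 0. Lists of 6 marker genes each were counted for the other cell classes. There were 7 loops in diestrus and 10 in estrus for smooth muscle, and 3 and 2 for epithelium. Endothelium had 9 and 4, and immune cells 4 and 5. A loop was found at 50%, 16.7%, 83.3% and 33.3% of the genes of these lists, in that order, against 55.7% of all protein-coding genes. These numbers do not measure the share of any cell class, and their part in the differences above was not tested.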

How the data were processed

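The 2 deposited loop lists were analysed. Arima Hi-C libraries were made per the labels' protocols, and the submitters' processing notes name Juicer and mm10; for the aligner, tool versions and caller settings: not given in the sources used here. Per the file headers, each list gives anchor positions (other: bases), observed contacts and merged pixels as counts, expected contacts from 4 neighbourhoods as a signal on the scale of raw contacts, and q-values, all made by the authors' caller. The largest q-values were 0.0955 and 0.0991. Only called loops are listed.

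From these, gene ends were assigned to anchors within 5 kb, loops were called shared when both anchors lay within 10 kb of each other, and mutually nearest loops were paired. Sequencing depth is not known from these files. Log2 ratios of strength were centred on all pairs, a shift of 0.016; contact ratios were not. Intervals are at 95%: exact Poisson for contacts, Clopper-Pearson for shares, and exact conditional for ratios, taking expected contacts as exact. Those of shares take loops as independent of each other. Read pairs are not independent molecules, so the other intervals cover counting error only. Genes were described loop by loop when they differed by at least 2 loops with at least 3 in 1 library, were among the 6 with most loops, or had a pair past 1.5-fold; others are examples, chosen after their values were seen. The members and lists were chosen with earlier results of these data known. Strand was known for 29 genes. Matching was tested on simulated data. Python 3.11.15, pandas 2.3.3, NumPy 2.4.6, SciPy 1.17.1 and matplotlib 3.10.9 were used. The partners of 2 Lamc1 loops are not reported here.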

Additional observations from a re-analysis of the deposited data

How the results depend on the processing

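No paired analysis was possible because each stage has 1 library. Against -17 loops in estrus minus diestrus, the matrix genes gave -31 when gene ends could lie up to 10 kb from an anchor, -8 at transcription starts (66 and 58 loops) and -4 with the diestrus list shortened to the length of the estrus list. Genes with at least 2 more loops in diestrus numbered 10 within 10 kb and 3 at transcription starts, where fewer genes have a strand. Those with 2 more in estrus numbered 0 at transcription starts, 2 with all q-values at or below 0.01 and 2 with the shortened list. The shares of all genes under these settings were not computed, so these counts cannot be set against them. With identical anchors, 67.8% of diestrus and 77.3% of estrus loops were found again. Pairs past 1.5-fold to estrus numbered 0 with the bottom-left expectation and 0 at identical positions, and those to diestrus 1 with the highest expectation (Postn, and neither Col3a1 loop) and 1 with gene ends inside anchors. Partners fell to 21 and 17 loops with gene ends inside the far anchor, and the other matrix genes to 90 and 85 loops, a difference of -5, with gene ends inside anchors. The cause was not tested where it does not follow from the narrower or wider rule. The other 64 values stayed near the main ones, and none changed direction. The share of pairs with fewer contacts in estrus ranged from 78.8% to 82.8% over 3 settings chosen after seeing the data. Col3a1 gave a difference of 0 and Ltbp1 of -1 with gene ends inside anchors, and Lamc1 of -1 with the shortened list.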
